A study of Mus musculus with 7 samples.

Results

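A set of 6 genes best known from neurons were followed through every colon tumor of the series: Gabra4, Cadps, Camkv, Adcy1, Amer2 and Tmem151b. They are 6 of the 43346 genes in the count table, found there by Ensembl identifier, and were chosen by their group difference, counts that were higher in tumors of mice that carried bone marrow (BM) with 1 Dnmt3a allele deleted. Their difference between the groups is therefore described and not tested. What the choice did not use is how the 6 genes varied from tumor to tumor, how their paralogs and pathway partners behaved, and how they compared with the enteric neuron markers Elavl4 and Tubb3 and with Axin2, a direct target of Wnt/β-catenin signaling. In brief, all 6 were low in tumors with Dnmt3a(+/+) BM, higher in each of the 4 tumors with Dnmt3a(+/-) BM, and ordered alike among those 4. Axin2 had this order and Tubb3 did not, while Elavl4 had too few counts for its order to be read.

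The proteins take part in signaling and secretion. Gabra4 encodes the α4 subunit of the GABA-A receptor, a chloride channel opened by the transmitter GABA. Cadps encodes CAPS1, which primes dense-core vesicles for calcium-triggered release, and Camkv encodes a kinase-like protein of vesicles that binds calmodulin. Adcy1 encodes an adenylyl cyclase that calmodulin stimulates and that makes cyclic AMP. Amer2 encodes a membrane protein that binds APC, the scaffold of the complex that degrades β-catenin, and Tmem151b encodes a transmembrane protein. The normal colon holds neurons in the enteric ganglia of its wall, and hormone-releasing enteroendocrine cells of the epithelium share part of the vesicle machinery with them.

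The recipients of BM were wild type, described as C57BL6/J and 8 wk old in the labels and as a congenic CD45.1 strain in the methods. After engraftment, colitis-associated cancer had been induced with 10 mg/kg azoxymethane (AOM, a carcinogen) given once and 3 cycles of 3% dextran sulfate sodium (DSS), which inflames the colon. All recipients had been lethally irradiated before they were given BM. The BM donors were Dnmt3a(+/fl) or Dnmt3a(+/+) mice with Mx1-Cre, and both kinds were injected with poly(I:C), which switches on the Mx1 promoter. The deletion was thus made in donor marrow, while the epithelium and other recipient cells of both groups were wild type for Dnmt3a. Polyadenylated RNA was sequenced from 1 whole tumor per sample, stroma included, for 3 tumors with Dnmt3a(+/+) BM and 4 with Dnmt3a(+/-) BM. Tumors 1 and 2 of each group came from a transplantation experiment named BMT18, and Dnmt3a(+/+) tumor 3 and Dnmt3a(+/-) tumors 3 and 4 from one named BMT8. In whole tumors, fewer cells of a type and less RNA per cell cannot be told apart.

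The 6 genes lie on 5 chromosomes (GRCm38, GENCODE M21), so they are not 1 locus. Gabra4 (ENSMUSG00000029211) is at chr5:71569749-71658308 on the minus strand and Camkv (ENSMUSG00000032936) at chr9:107935674-107949691 on the plus strand. Adcy1 (ENSMUSG00000020431) is at chr11:7063489-7178506 on the plus strand and Tmem151b (ENSMUSG00000096847) at chr17:45541952-45549677 on the minus strand. Both Cadps (ENSMUSG00000054423, minus strand, chr14:12372563-12823079) and Amer2 (ENSMUSG00000021986, plus strand, chr14:60373259-60388197) are on chromosome 14. The RefSeq promoter table (GRCm38.p6) holds a window for all 6 genes. The 250 bases before the RefSeq start are shown for the 3 genes where no annotated exon reaches into them, on the strand of the gene, with CG dinucleotides, the sites that DNA methyltransferases such as Dnmt3a modify, in capitals. Methylation was not analysed here.
Adcy1, chr11:7063183-7063432: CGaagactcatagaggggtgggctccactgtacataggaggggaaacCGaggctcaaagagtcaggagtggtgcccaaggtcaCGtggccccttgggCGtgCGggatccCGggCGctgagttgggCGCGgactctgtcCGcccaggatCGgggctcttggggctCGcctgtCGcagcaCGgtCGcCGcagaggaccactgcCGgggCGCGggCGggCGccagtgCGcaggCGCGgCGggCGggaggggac
Cadps, chr14:12823080-12823329: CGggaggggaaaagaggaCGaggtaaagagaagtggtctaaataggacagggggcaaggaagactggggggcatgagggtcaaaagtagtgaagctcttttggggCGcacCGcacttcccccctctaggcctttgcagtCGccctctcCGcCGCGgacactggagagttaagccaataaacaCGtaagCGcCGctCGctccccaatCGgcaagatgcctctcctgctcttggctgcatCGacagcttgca
Tmem151b, chr17:45549678-45549927: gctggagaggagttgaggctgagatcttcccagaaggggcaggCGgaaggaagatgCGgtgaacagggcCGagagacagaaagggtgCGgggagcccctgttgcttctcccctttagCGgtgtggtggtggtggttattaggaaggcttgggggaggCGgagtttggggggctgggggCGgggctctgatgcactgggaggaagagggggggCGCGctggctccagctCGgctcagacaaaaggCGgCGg

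The Adcy1 window holds 26 CG sites in 250 bases, a ratio of observed to expected CG of 0.856 given its base composition. Cadps has 14 sites (0.67) and Tmem151b 12 (0.562). Of the other windows, Gabra4 has 12 sites (0.653), Camkv 18 (0.63) and Amer2 3 (0.196). Across all 32851 windows of the table the median was 6 sites and a ratio of 0.373, so 5 of the 6 genes were above the median and Amer2 was below it. The RefSeq start used for Amer2 lies 4433 bases from its GENCODE start, and 246 of the 250 Camkv bases are annotated exon. These 2 windows may thus not stand for the main promoter. A ratio above 0.6 was found for 4 of the 6 genes and for 34% of all windows. Then 3 motifs were searched on both strands of the full windows, which add 50 bases after the start. The TCF/LEF motif CTTTGAT, or its reverse complement ATCAAAG, was in 0 of the 6 windows and in 3.73% of all. The cyclic AMP response element TGACGTCA was in 0 of 6 and in 1.79% of all, and the stretch TTCAGCACC of the REST element, or GGTGCTGAA, was in 0 of 6 and in 0.371% of all.

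The authors deposited estimated counts per gene, 38472738 to 64314999 in all per tumor with a median of 40300780. Levels are given as counts per 1000000 counts (CPM) after TMM scaling. The tissue label matched its markers: Epcam, of epithelial cells, was at 1540 to 3240 CPM in every tumor. Dnmt3a itself was at 20.2 to 24.3 CPM with Dnmt3a(+/+) BM and 22.0 to 43.0 CPM with Dnmt3a(+/-) BM, so these bulk libraries, in which recipient cells also express it, give no check of the donor deletion. The marker of smooth muscle Myh11 was at 0.734 CPM in Dnmt3a(+/+) tumor 3 and at 26.3 to 297 CPM in the other 6 tumors. Across genes, edgeR's quasi-likelihood test called 0% of 15810 genes at an adjusted p under 0.05 and a log2 fold change over 1 in size, and the smallest adjusted p was 0.361. Before adjustment 1744 genes (11%) were under 0.05, 922 higher (5.83%) and 822 lower (5.2%). DESeq2, the tool the study used, called 300 genes (1.9%), 233 higher (1.47%) and 67 lower (0.424%).

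All 6 genes passed the filter on low counts. Gabra4, Camkv and Tmem151b had at most 7 counts in any Dnmt3a(+/+) tumor and passed only through the Dnmt3a(+/-) tumors, so they had to differ. The other 3, Cadps, Adcy1 and Amer2, had at least 14 counts in every tumor. Every Dnmt3a(+/-) tumor was above every Dnmt3a(+/+) tumor for 6 of the 6 genes, as for 6.12% of all genes tested, and DESeq2 called 6 of the 6 against its 1.47%. edgeR called 0 of the 6. Since this contrast chose the genes, these counts are no support for it. The DESeq2 adjusted p-values behind the choice ran from 3.84e-06 for Gabra4 to 0.0236 for Tmem151b. The higher genes just inside that threshold were Gata2, Slc1a4 and Ctxn1 at 0.0493 each, and those just outside were Creb3l2 at 0.0502 and Cadm1 and Rbm20 at 0.0505 each.

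**Figure D1:**
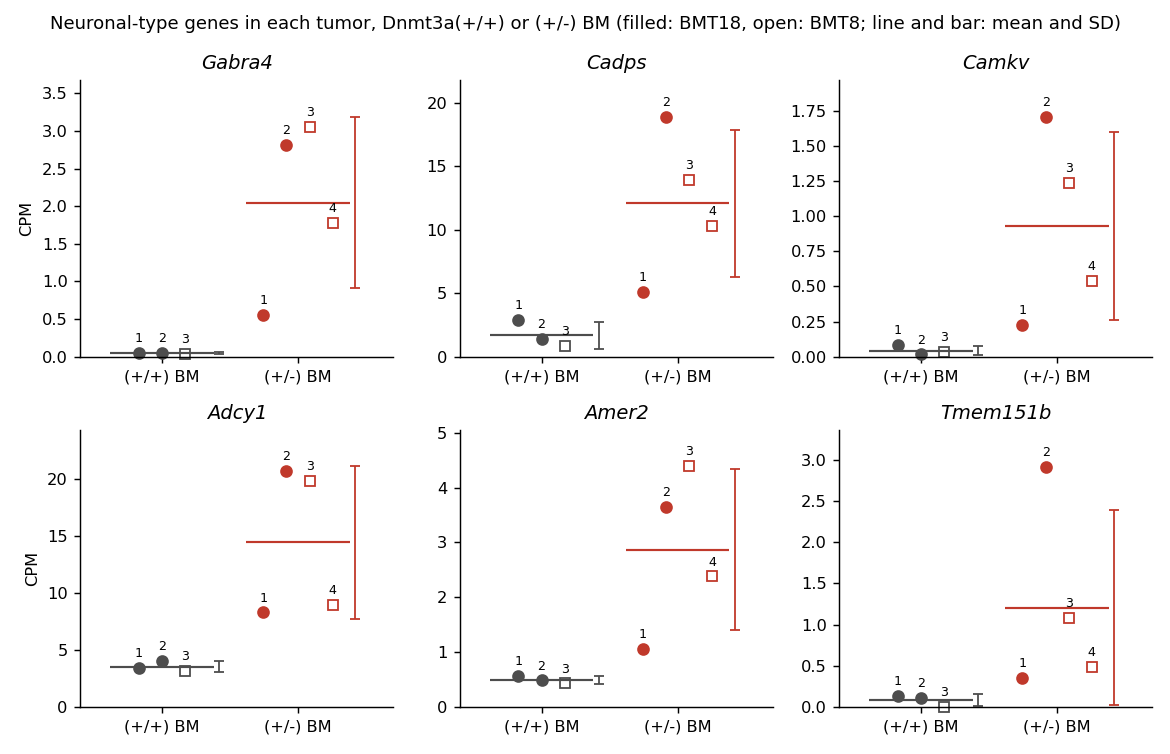
CPM (vertical axes, from 0) of the 6 genes in each tumor by graft genotype, Dnmt3a(+/+) or Dnmt3a(+/-) BM. Numbers are tumor numbers, filled circles are BMT18, open squares BMT8, lines the group means and bars the SD (n = 3 and 4). In every panel the 4 Dnmt3a(+/-) tumors sit above the 3 Dnmt3a(+/+) tumors, with tumor 1 the lowest of the 4.

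Gabra4 was near 0 with Dnmt3a(+/+) BM, at 0.0537, 0.0468 and 0.0306 CPM in tumors 1 to 3, which is 2, 3 and 1 counts. With Dnmt3a(+/-) BM it was at 0.549, 2.81, 3.05 and 1.78 CPM in tumors 1 to 4, or 22, 138, 150 and 66 counts. The lowest Dnmt3a(+/-) tumor was 10.2 times the highest Dnmt3a(+/+) tumor. The group means were 2.05 ± 1.14 CPM (SD, n = 4) and 0.0437 ± 0.0119 CPM (SD, n = 3). Summed over each group, 376 counts against 6 gave a ratio of 47.9, with an exact 95% interval of 21.8 to 131 that covers counting error only, as do the intervals below. The fitted log2 fold change was 5.44 ± 0.79 (SE, standard error), a size that rests on only 6 counts with Dnmt3a(+/+) BM.

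A working GABA-A receptor needs partner subunits. Of the 18 other subunit genes, 6 had 0 counts in all 7 tumors and 2 had enough counts to be tested. One was Gabrb1, a β subunit gene that lies head to head with Gabra4 on the opposite strand. It had 0 counts in each Dnmt3a(+/+) tumor and 70 in all with Dnmt3a(+/-) BM, at 0.025, 0.632, 0.427 and 0.460 CPM in tumors 1 to 4. Set against a floor of 3 counts over the Dnmt3a(+/+) group, it was at least 17.8-fold higher. Gabrb1 passed the filter only through the Dnmt3a(+/-) tumors, so it had to differ and is no independent support for Gabra4. The annotated exons of Gabra4 and Gabrb1 share 46 bases, and whether counting used strand is not given in the sources used here, so reads there could fall to either gene. The other, Gabrp, which encodes the π subunit found in epithelia, overlapped between groups. It was at 14.1, 2.22 and 1.65 CPM with Dnmt3a(+/+) BM and at 13.4, 4.73, 6.48 and 4.14 CPM with Dnmt3a(+/-) BM, and its log2 fold change was 0.26 ± 0.80 (SE). The 10 remaining genes with counts were below the filter, and among them Gabre stayed at or under 0.122 CPM in all tumors. Gabrd, a δ subunit gene, was at 0.376, 0.999 and 0 CPM with Dnmt3a(+/+) BM and at 0.0815 to 0.175 CPM with Dnmt3a(+/-) BM, with overlap.

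Cadps was present in every tumor. It was at 2.87, 1.36 and 0.826 CPM with Dnmt3a(+/+) BM and at 5.12, 18.9, 13.9 and 10.3 CPM with Dnmt3a(+/-) BM. The groups did not overlap, but the gap was smaller than for Gabra4, as Dnmt3a(+/-) tumor 1 was 1.78 times the highest Dnmt3a(+/+) tumor. Means were 12.1 ± 5.84 (SD, n = 4) and 1.69 ± 1.06 CPM (SD, n = 3), and 2200 counts against 221 gave a ratio of 7.60 (95% interval 6.62 to 8.77). The log2 fold change was 2.84 ± 0.60 (SE).

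The paralog Cadps2, which encodes CAPS2, had the opposite direction. It was above Cadps in all 7 tumors, in CPM and per length of exon, at 49.9, 77.5 and 45.1 CPM with Dnmt3a(+/+) BM and 39.9, 20.2, 43.1 and 32.0 CPM with Dnmt3a(+/-) BM, and its lowest tumor, Dnmt3a(+/-) tumor 2, was the one where Cadps was highest. All 4 values lay below the 3 others, as for 6.32% of genes tested, with a log2 fold change of -0.77 ± 0.30 (SE), which edgeR did not call (unadjusted p = 0.0335). The wider machinery of regulated exocytosis was evenly split in direction. Of 25 genes tested, 13 were higher and 12 lower (50.2% of all genes tested were higher), with a median log2 fold change of 0.11 beside 0.003 over all genes. At an unadjusted p under 0.05, 3 of the 25 were higher (Syt1, Stx1a and Sv2a), beside 5.83% of all genes tested. At the same threshold 1 was lower (Cadps2), beside 5.2% of all, and neither edgeR nor DESeq2 called any. Syt1, the calcium sensor of synaptic vesicles, was at 0.322, 0.468 and 0.856 CPM against 0.674, 4.52, 2.76 and 1.76 CPM, with overlap between the groups. Snap25, the membrane-bound SNARE of neurons and endocrine cells, had a log2 fold change of -0.54 ± 0.38 (SE).

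Adcy1 varied least among the Dnmt3a(+/-) tumors of the 6 genes, 2.50 times from lowest to highest. It was at 3.44, 4.03 and 3.15 CPM with Dnmt3a(+/+) BM and 8.28, 20.7, 19.8 and 8.98 CPM with Dnmt3a(+/-) BM. Tumors 2 and 3 of the second group were close to each other and so were tumors 1 and 4, and the lowest of the 4 was 2.06 times the highest Dnmt3a(+/+) tumor. Means were 14.5 ± 6.74 (SD, n = 4) and 3.54 ± 0.447 CPM (SD, n = 3). The ratio of summed counts, 2657 against 489, was 4.15 (95% interval 3.77 to 4.58), and the log2 fold change was 2.03 ± 0.42 (SE).

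No other adenylyl cyclase gene separated the groups. Of the cyclases tested beside Adcy1, Adcy6, the cyclase with the highest CPM, was at 118 to 204 CPM with Dnmt3a(+/+) BM and 105 to 160 CPM with Dnmt3a(+/-) BM, where the log2 fold change was -0.24 ± 0.24 (SE). Adcy8, which calmodulin also stimulates, was at 13.8, 22.4 and 36.1 CPM against 21.8, 48.2, 34.4 and 56.8 CPM (log2 fold change 0.74 ± 0.41, SE), and Adcy3 overlapped as well at 0.83 ± 0.58 (SE). Among the 20 tested genes of cyclases and cyclic AMP effectors, 13 were higher and 7 lower, with a median of 0.23 (0.0997 without Dnmt3a(+/-) tumor 2 and 0.366 without Dnmt3a(+/+) tumor 2). At an unadjusted p under 0.05, 1 of the 20 was higher, near the 5.83% of all genes, and DESeq2 called the same gene. It was Prkar1b, a regulatory subunit of protein kinase A that is abundant in brain. It was at 1.53, 0.984 and 0.734 CPM with Dnmt3a(+/+) BM and 2.17, 9.84, 3.62 and 2.27 CPM with Dnmt3a(+/-) BM, without overlap (log2 fold change 2.04 ± 0.65, SE, DESeq2 adjusted p = 0.0482).

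Camkv was at the edge of detection without the deleted allele. Dnmt3a(+/+) tumors 1 to 3 had 3, 1 and 1 counts, or 0.0806, 0.0156 and 0.0306 CPM. Dnmt3a(+/-) tumors 1 to 4 had 9, 84, 61 and 20 counts, or 0.225, 1.71, 1.24 and 0.541 CPM. Tumor 1 was again the lowest of the 4, at 2.79 times the highest Dnmt3a(+/+) value. Means were 0.929 ± 0.672 (SD, n = 4) and 0.0423 ± 0.034 CPM (SD, n = 3), and 174 counts against 5 gave a ratio of 26.6 (95% interval 11.2 to 82.9). The log2 fold change was 4.45 ± 0.97 (SE). Among the calcium/calmodulin-dependent kinases and their inhibitors, with 12 tested, 10 were higher and 2 lower with a median of 0.25, 0 had an unadjusted p under 0.05 and 0 were called by edgeR or DESeq2. Camk2a, the isoform typical of forebrain neurons, had the largest log2 fold change of the list at 1.04 ± 0.56 (SE), with overlap.

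Amer2 was low but present with Dnmt3a(+/+) BM, at 0.564, 0.484 and 0.428 CPM, and these 3 tumors were alike. With Dnmt3a(+/-) BM it was at 1.05, 3.65, 4.39 and 2.38 CPM. Its lowest Dnmt3a(+/-) tumor was 1.86 times the highest Dnmt3a(+/+) tumor, and the means were 2.87 ± 1.47 (SD, n = 4) and 0.492 ± 0.0684 CPM (SD, n = 3). Summed counts of 525 against 66 gave a ratio of 6.08 (95% interval 4.70 to 7.97), with a log2 fold change of 2.54 ± 0.56 (SE). Its paralog Amer1 overlapped between groups, at 7.83 to 10.4 CPM with Dnmt3a(+/+) BM and 7.25 to 13.7 CPM with Dnmt3a(+/-) BM (log2 fold change 0.28 ± 0.27, SE), and Amer3 had 0 counts in all tumors. The genes of the β-catenin destruction complex with Amer1 gave 5 of 8 higher and a median of 0.12, with 0 at an unadjusted p under 0.05 and 0 called by either tool.

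Tmem151b had the widest spread. It was at 0.134, 0.109 and 0 CPM with Dnmt3a(+/+) BM (5, 7 and 0 counts, where a count of 0 allows up to 0.0918 CPM) and at 0.349, 2.91, 1.08 and 0.487 CPM with Dnmt3a(+/-) BM (14, 143, 53 and 18 counts). Dnmt3a(+/-) tumor 2 held most of the group's counts, at 8.34 times tumor 1, and tumor 1 was 2.60 times the highest Dnmt3a(+/+) tumor. Means were 1.21 ± 1.18 (SD, n = 4) and 0.0812 ± 0.0714 CPM (SD, n = 3). The summed counts of 228 against 12 gave a ratio of 14.5 (95% interval 8.15 to 28.5), and the log2 fold change of 3.80 ± 1.12 (SE) was 2.91 without Dnmt3a(+/-) tumor 2. Exons of Tmem151b share 729 bases with Tcte1 on the opposite strand, which had 9 counts over all 7 tumors. The paralog Tmem151a overlapped, at 0.564 to 0.984 CPM and 0.406 to 1.41 CPM (log2 fold change 0.20 ± 0.51, SE).

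Levels between genes can be compared only per length. Per kilobase of annotated exon, the mean level with Dnmt3a(+/-) BM was 1.15 ± 0.538 CPM (SD, n = 4) for Adcy1 and 0.801 ± 0.388 for Cadps. Adcy1 was above Cadps on this scale in each of these tumors. Gabra4 followed at 0.337 ± 0.187, then Amer2 at 0.269 ± 0.138, Tmem151b at 0.249 ± 0.244 and Camkv at 0.247 ± 0.179 CPM per kilobase, and the order of these 4 changed between tumors. Axin2, on the same scale, was at 26.9 ± 9.02 CPM per kilobase, so all 6 genes were low beside a Wnt target of the tumor. With Dnmt3a(+/+) BM, Adcy1 was at 0.283 ± 0.0357, Cadps at 0.112 ± 0.0706 and Amer2 at 0.0462 ± 0.00641 CPM per kilobase (SD, n = 3). Cadps was above Amer2 on this scale in each of these tumors. Tmem151b at 0.0168 ± 0.0148, Camkv at 0.0112 ± 0.00904 and Gabra4 at 0.00719 ± 0.00195 rest on 12, 5 and 6 counts in all, and their order changed between tumors.

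The 4 Dnmt3a(+/-) tumors were ordered alike by every gene. Tumors 2 and 3 were the highest pair, tumor 4 came next and tumor 1 was the lowest in 6 of the 6 genes, an order that 992 of the 15810 genes tested had (6.27%). Of the 967 genes with every Dnmt3a(+/-) tumor above every Dnmt3a(+/+) tumor, as for the 6, 247 had this order (1.56% of all tested). The order was thus more frequent among genes separated like the 6 than among all genes. For the 6 genes, the share to compare with is therefore 247 of 967, and not 6.27% or 1.56% of all genes. These shares were worked out after seeing the data, so the common order of the 6 genes is a description and was not tested. The fold from tumor 1 to tumor 2 was 2.50 for Adcy1, 3.48 for Amer2, 3.70 for Cadps, 5.12 for Gabra4, 7.62 for Camkv and 8.34 for Tmem151b. The high pair, tumors 2 and 3, and the remaining tumors 1 and 4 each hold 1 tumor of BMT18 and 1 of BMT8. In the sample labels, Dnmt3a(+/-) tumors 2, 3 and 4 carry an extra number, 2, that Dnmt3a(+/-) tumor 1 and the Dnmt3a(+/+) tumors lack. Its meaning is not given in the sources used here, and whether it bears on the order was not tested. Within BMT18 the log2 fold changes were 5.003 for Gabra4, 2.51 for Cadps, 4.41 for Camkv, 1.96 for Adcy1, 2.16 for Amer2 and 3.73 for Tmem151b. In BMT8, which has 1 Dnmt3a(+/+) tumor, they were 3.87 for Cadps, 2.19 for Adcy1 and 2.97 for Amer2, and none is given for the other 3 genes, which had 0 or 1 count in that tumor. The difference between the experiments was tested as an interaction in edgeR, where 0 genes had an adjusted p under 0.05 (730 unadjusted), and the unadjusted p was 0.288 for Cadps, 0.808 for Adcy1 and 0.515 for Amer2. With 1 Dnmt3a(+/+) tumor in BMT8, this test says little about a difference between the experiments.

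Axin2 had the same order. It was at 60.6, 77.4 and 63.4 CPM with Dnmt3a(+/+) BM and 86.6, 203, 169 and 134 CPM with Dnmt3a(+/-) BM, without overlap. Its log2 fold change was 1.14 ± 0.29 (SE), where the adjusted p was 0.361 in edgeR and 0.0209 in DESeq2. An exact permutation test of log2 CPM over the 35 splits of the tumors gave a two-sided p of 0.0571 (0.0857 adjusted over 3 genes, where the smallest p possible is 0.0286). Axin2 varied less than the 6 genes, by 2.34 times from tumor 1 to tumor 2. Relative to Axin2, all 6 genes were higher in every Dnmt3a(+/-) tumor than in every Dnmt3a(+/+) tumor. The 6 genes were chosen by this group difference and each had a larger log2 fold change than Axin2. This separation therefore follows largely from the choice, and the ratios are a description only. Gabra4 was at 0.0482 to 0.0886% of the Axin2 CPM with Dnmt3a(+/+) BM and 0.634 to 1.80% with Dnmt3a(+/-) BM. Adcy1, with the smallest change, was at 4.97 to 5.67% and 6.69 to 11.7%. In the mean of these percentages the Dnmt3a(+/-) group was 19.6 times the other for Gabra4, 8.34 times for Camkv, 5.87 times for Tmem151b, 2.99 times for Cadps, 2.48 times for Amer2 and 1.81 times for Adcy1.

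Tubb3 did not follow this order, and Elavl4 had too few counts for its order to be read. Tubb3, the tubulin of neurons, was at 3.92, 1.28 and 1.32 CPM with Dnmt3a(+/+) BM and 5.74, 6.58, 1.58 and 1.00 CPM with Dnmt3a(+/-) BM. Dnmt3a(+/-) tumor 4 had the lowest Tubb3 of all 7 tumors, and tumor 3, among the highest for the 6 genes, was near the Dnmt3a(+/+) level. The log2 fold change was 0.78 ± 0.77 (SE; 0.37 to 1.52 with 1 tumor left out), for which edgeR gave an adjusted p of 0.743 and the exact permutation test a two-sided p of 0.571. Elavl4, an RNA-binding protein of neurons, had 3, 10 and 0 counts with Dnmt3a(+/+) BM and 7, 12, 8 and 11 with Dnmt3a(+/-) BM, or 0 to 0.156 CPM and 0.162 to 0.297 CPM. It was below the filter, and its lowest Dnmt3a(+/-) value was close to the highest of the other group. The mean log2 CPM differed by 1.31 (0.71 without Dnmt3a(+/+) tumor 3), with an exact permutation two-sided p of 0.0286, the smallest the design allows, and 0.0857 adjusted over the 3 genes. Without the filter edgeR gave a log2 fold change of 1.35 ± 0.93 (SE; unadjusted p = 0.181).

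**Figure D2:**
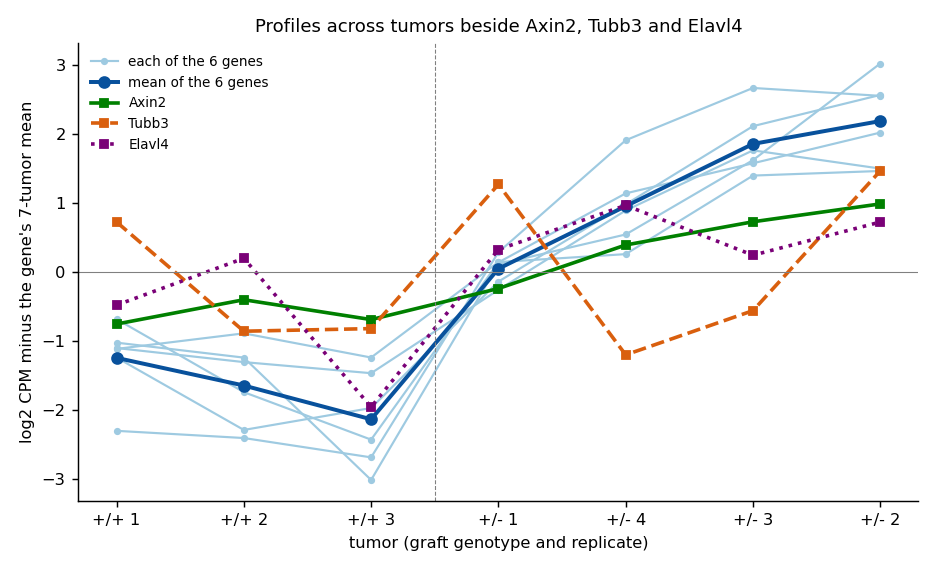
Log2 CPM of each gene minus its mean over the 7 tumors (vertical axis) by tumor, +/+ for Dnmt3a(+/+) BM and +/- for Dnmt3a(+/-) BM, the latter drawn in the order 1, 4, 3, 2. Light lines are the 6 genes, the dark line their mean, and the others Axin2, Tubb3 and Elavl4. The 6 genes and Axin2 are lowest at tumor 1 and highest at tumors 2 and 3 of the Dnmt3a(+/-) group, while Tubb3 is lowest there at tumor 4.

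Other markers of enteric neurons were mixed. Elavl3, a relative of Elavl4, was at or under 0.306 CPM in every tumor, and Chat, of cholinergic neurons, at or under 0.0812 CPM. Summed over the 24 listed neuron markers, the level was 49.7 to 82.7 CPM with Dnmt3a(+/+) BM and 61.4 to 72.6 CPM with Dnmt3a(+/-) BM. Of 17 tested, 13 were higher and 4 lower with a median log2 fold change of 0.69 (0.29 without Dnmt3a(+/-) tumor 2), and 3 (Uchl1, Nefm and Hand2) had the order of the 6 genes, beside 6.27% of all genes tested. At an unadjusted p under 0.05, 1 was higher and 1 lower, near the 5.83% and 5.2% of all genes, so these counts do not set the list apart. The higher was Ret, the receptor of glial cell-derived neurotrophic factors, at 4.97, 5.42 and 8.23 CPM against 12.0, 24.2, 29.6 and 35.2 CPM (log2 fold change 2.02 ± 0.40, SE, DESeq2 adjusted p = 0.000262). Its highest tumor was Dnmt3a(+/-) tumor 4. The lower was Tac1, which encodes substance P, at 14.4 to 21.2 CPM against 8.04 to 10.0 CPM (log2 fold change -0.97 ± 0.21, SE). Stmn2, a growth cone protein, was at 9.63 to 40.3 CPM against 3.81 to 29.9 CPM with overlap.

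Enteroendocrine markers were mostly lower with Dnmt3a(+/-) BM. Of 14 tested, 1 was higher and 13 lower with a median of -0.49 (-0.91 to -0.30 with 1 tumor left out), and 0 passed an unadjusted p of 0.05. Chga, a granin of secretory granules, was at 24.4, 26.4 and 10.2 CPM with Dnmt3a(+/+) BM and 12.5, 10.6, 17.0 and 9.57 CPM with Dnmt3a(+/-) BM. The summed level of the list was lowest, at 63.9 CPM, in Dnmt3a(+/-) tumor 2, where the 6 genes were high. Among 6 glia markers tested the median was 0.35, and 1 gene was called by DESeq2, Entpd2, an ectonucleotidase, which was lower (log2 fold change -1.03 ± 0.25, SE, adjusted p = 0.0194). Sox10, of glia, was at or under 0.163 CPM in every tumor.

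Lists of other cells moved with the groups or with single tumors. All 7 endothelial markers were higher, with a median of 1.75 (1.23 to 2.42 with 1 tumor left out). Of the 7, 6 had an unadjusted p under 0.05 (5.83% of all genes tested) and DESeq2 called 3, Pecam1, Kdr and Cdh5 (1.47% of all). Their summed level was 12.3 to 24.9 CPM with Dnmt3a(+/+) BM and 24.1, 131, 32.3 and 58.7 CPM in Dnmt3a(+/-) tumors 1 to 4. Fibroblast markers summed to 153 to 301 CPM with Dnmt3a(+/+) BM and 238, 1010, 230 and 360 CPM with Dnmt3a(+/-) BM, and leukocyte markers to 67.6 to 134 CPM and 126, 479, 103 and 93.5 CPM. Tumor 2 was thus the highest for these 3 lists, but tumor 3, the other high tumor of the 6 genes, was lower than tumor 4 for the endothelial and fibroblast markers. Smooth muscle markers summed to 970, 828 and 43.1 CPM against 660, 272, 1240 and 361 CPM, and epithelial markers to 15600, 20500 and 31600 CPM against 12800, 9560, 15500 and 20300 CPM. The median log2 fold changes were 0.79 for fibroblast markers (0.20 without Dnmt3a(+/-) tumor 2), 0.58 for leukocyte markers (0.079 without that tumor), 0.15 for smooth muscle (-0.53 without Dnmt3a(+/-) tumor 3 and 0.52 without Dnmt3a(+/+) tumor 1), 0.33 for interstitial cells of Cajal and -0.52 for epithelium. Of these 5 lists only 2 genes passed an unadjusted p of 0.05, Pdgfra of fibroblasts and Cdx2 of intestinal epithelium, both higher. What part these cells have in the levels of the 6 genes was not tested.

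**Figure D3:**
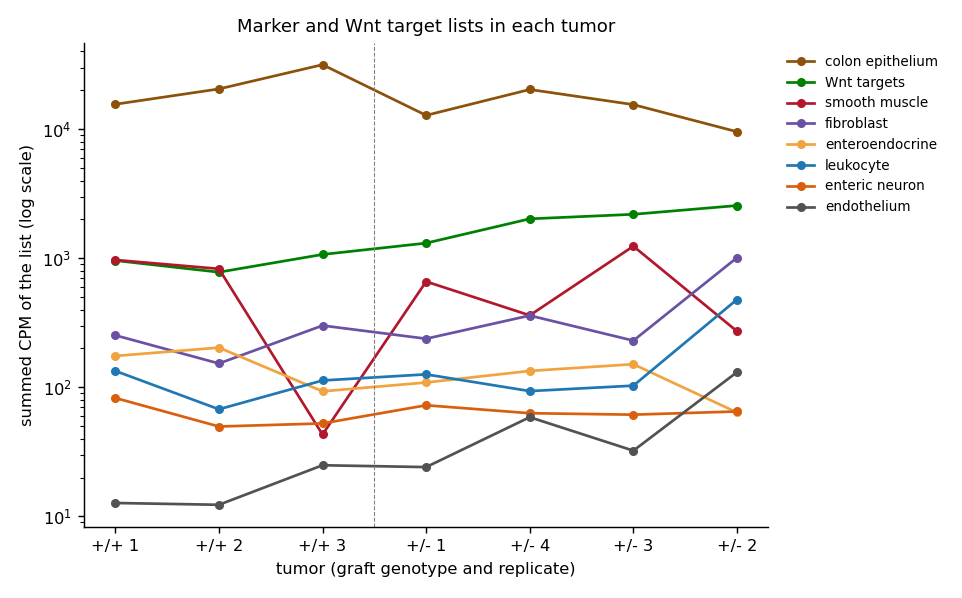
Summed CPM of each marker list and of the Wnt target list (vertical axis, log scale) by tumor, with the Dnmt3a(+/-) tumors in the order 1, 4, 3, 2. Fibroblast, leukocyte and endothelial markers peak at Dnmt3a(+/-) tumor 2 (1010, 479 and 131 CPM), smooth muscle drops to 43.1 CPM in Dnmt3a(+/+) tumor 3, and neuron markers stay between 49.7 and 82.7 CPM.

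Wnt feedback and target genes, the list to which Axin2 belongs, gave 18 of 19 higher and 1 lower, with a median log2 fold change of 1.32. At an unadjusted p under 0.05, 14 were higher (5.83% of all genes tested), 8 were called higher by DESeq2 (1.47% of all), and 11 did not overlap between groups, with the Dnmt3a(+/-) tumors above (6.12% of all). Several of these genes were part of earlier results on these tumors, so their direction is no independent support. The order of the 6 genes among the Dnmt3a(+/-) tumors was found in 7 of the 19 (Axin2, Nkd1, Lef1, Znrf3, Rnf43, Wif1 and Dkk3). Lef1, a transcription factor that binds β-catenin, was at 4.00, 3.50 and 3.09 CPM against 7.96, 25.1, 22.0 and 15.8 CPM (log2 fold change 2.33 ± 0.41, SE). The summed level of the list was 780 to 1070 CPM with Dnmt3a(+/+) BM and 1310, 2560, 2190 and 2020 CPM with Dnmt3a(+/-) BM, lowest at tumor 1 and highest at tumors 2 and 3 as for the 6 genes.

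**Figure D4:**
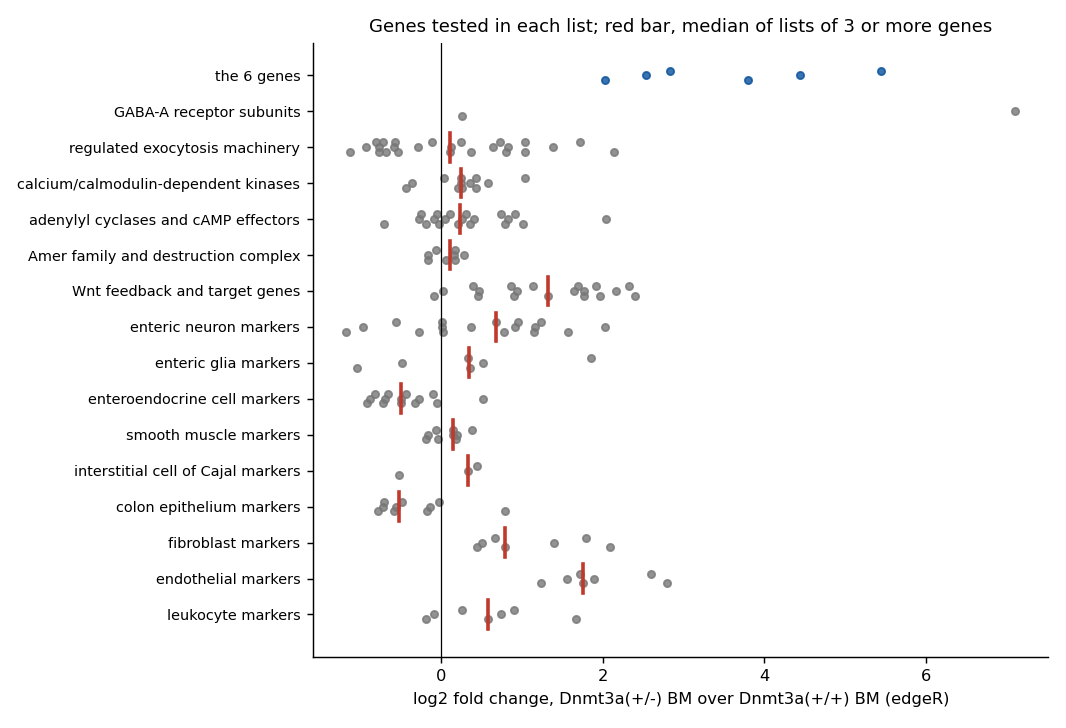
Log2 fold change of Dnmt3a(+/-) over Dnmt3a(+/+) BM from edgeR (horizontal axis) for each tested gene of the 6 genes and of 15 lists (rows), with a red bar at the median of lists of 3 or more genes. The 6 genes lie between 2.03 and 5.44, the lists of exocytosis, calmodulin kinases, cyclic AMP and the destruction complex have medians of 0.11 to 0.25, and Wnt targets (1.32) and endothelial markers (1.75) lie to the right.

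Genes with the profile most like the mean of the 6 were sought over all genes tested, by the root mean square difference of centred log2 CPM over the 7 tumors. The 5 nearest were Dact1 and Slc44a5 at 0.376 each, Nrxn3 at 0.383, Sdk2 at 0.392 and Pycr1 at 0.398. Within the 6 genes this distance to their own mean ran from 0.283 for Cadps to 0.733 for Gabra4. Dact1, an intracellular modulator of Wnt signaling, was at 0.752, 0.484 and 0.245 CPM with Dnmt3a(+/+) BM and 0.923, 4.07, 3.82 and 2.05 CPM with Dnmt3a(+/-) BM. Nrxn3, a presynaptic adhesion protein, was at 0.269, 0.109 and 0.0612 CPM against 0.424, 2.40, 1.30 and 1.57 CPM, and Pycr1, an enzyme of proline synthesis, at 8.84, 5.50 and 6 CPM against 13.7, 49.6, 75.2 and 34.2 CPM. The distance includes the group difference by which the 6 genes were chosen, so genes with a large difference lie near by construction (log2 fold changes of 2.45 to 3.26 for the 5 nearest), and this nearness is a description only.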

How the data were processed

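RNA-seq of 7 whole colon tumors was analysed. Per the methods, reads were trimmed (Trimmomatic) and aligned with STAR 2.7.3a to build 38 (mm10) of the mouse genome. The authors deposited estimated counts per gene from RSEM v1.2.31, as whole numbers in 100% of values and without normalization. The annotation release and the strand setting are not given in the sources used here. The labels give recipients as 8 wk old and the methods give another age. Of 43346 genes, 42462 were matched to a symbol, and the others held 0.1041% of counts.

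The 6 genes and all gene lists were chosen with earlier results of these data known. Counts were tested with edgeR 4.0.16 in R 4.3.3 (TMM scaling, filterByExpr, quasi-likelihood test, Benjamini-Hochberg adjustment over 15810 genes, no covariate). Calls required both an adjusted p under 0.05 and a log2 fold change over 1 in size. DESeq2 1.42.0, which the study used, was an alternative. Elavl4, Tubb3 and Axin2 were also compared by a two-sided exact permutation test of log2 CPM (prior count 2) over 35 splits. Nothing in the labels pairs the tumors, and replicate numbers name different animals, so p-values measure the spread between tumors. Genes were named by a rule: the 6 genes, the 3 comparators, paralogs with counts, up to 3 genes per list with the lowest unadjusted p under 0.05 or a DESeq2 call, defining markers, and the 5 nearest profiles. Some genes that the rule names are not reported here. Gene lists (16, with 212 genes) were described by counts and medians. On simulated counts for this comparison with 200 of 15810 genes changed, and dispersion estimated per gene, edgeR recovered 131 with 5 false calls and DESeq2 159 with 66. With a dispersion of 0.05 for every gene, they recovered 198 with 3 and 196 with 4 false calls. Positions are from GENCODE M21, promoter sequences from RefSeq (GRCm38.p6). Alternatives were DESeq2, other scalings, no filter, robust dispersion, the experiment as a covariate, no fold threshold, a replicate block, BMT18 alone and each tumor left out. The DESeq2 fits with a tumor left out, the interaction with the experiment and the share of genes with a given order were added after seeing the data.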

Additional observations from a re-analysis of the deposited data

Results flagged for a closer look

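Dnmt3a(+/-) tumor 2 stood apart from the other 3 tumors of its group in 2 of 25 groups of values tested for an outlying sample with Dixon's ratio, of which chance flags about 1 in 20. Summed fibroblast markers were at 1010 CPM there, against 230 to 360 CPM in the other 3, a gap of 0.833 of the group's range and past the ratio's critical value for 4 samples. Summed leukocyte markers were at 479 CPM, against 93.5 to 126 CPM, a gap of 0.916. None of the 6 neuronal-type genes was set apart in this way. Without this tumor their log2 fold changes all stayed above 1.8.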

How the results depend on the processing

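For each of the 6 genes, the log2 fold change moved by less than the spread between tumors under all 15 alternatives. Its range with 1 tumor left out was 5.19 to 5.78 for Gabra4, 2.52 to 3.45 for Cadps, 3.98 to 5.27 for Camkv, 1.84 to 2.25 for Adcy1, 2.25 to 2.84 for Amer2 and 2.91 to 4.23 for Tmem151b. edgeR called 0 genes in every fit made with it, the replicate block and BMT18 alone included, while DESeq2 called 300. With 1 tumor left out DESeq2 called from 52 genes (without Dnmt3a(+/+) tumor 2) to 644 (without Dnmt3a(+/-) tumor 1), and 165 without Dnmt3a(+/-) tumor 2. In these 7 fits it called Gabra4, Cadps and Adcy1 each time, Amer2 in 6 (adjusted p = 0.0604 without Dnmt3a(+/+) tumor 2), Camkv in 4 (no adjusted p in the other 3), and Tmem151b and Axin2 in 2 each. The 6 genes were chosen by this contrast in these same tumors, so their calls here are a description and no independent support. Axin2 passed under DESeq2 (log2 fold change 1.16, adjusted p = 0.0209) and under no edgeR fit.

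Of 240 list medians under the alternatives, 14 moved by more than the spread between tumors, and the causes were not tested. The GABA-A median over its 2 tested genes (3.69, or 2.21 with Gabrb1 at its lower bound) was 0.25 with no filter, where 12 genes entered, and 3.43 to 4.52 with 1 tumor left out. Scaling by library size only moved the median of all genes to 0.21, and gave 0.49 for calmodulin kinases, 0.33 for the destruction complex and 0.54 for glia. Glia markers were at 0.51 with the replicate block and 0.093 in BMT18 alone, and smooth muscle at -0.95 in BMT18 alone. With 1 tumor left out, medians ran from 0.29 to 0.99 for neuron markers, -0.025 to 0.49 for glia and -0.44 to 0.58 for interstitial cells of Cajal.

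Deviations from the group means correlated at 0.57, 0.071 and -0.038 between same-numbered tumors for numbers 1 to 3. Same-numbered tumors also share an experiment, so these values cannot tell a pairing from an effect of the experiment. Low counts limit Gabra4, Camkv and Tmem151b with Dnmt3a(+/+) BM, and Elavl4 in all tumors.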
